A study of Mus musculus with 6 samples.

Results

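The microRNAs encoded inside the Hox gene clusters, mmu-miR-10a, mmu-miR-10b, mmu-miR-196a, mmu-miR-196b and mmu-miR-615, were followed across 6 microarrays of mouse embryoid bodies. They were chosen by name: a member is a probe for which the array files name one of these microRNAs and which is not a control spot. The rule found 5 of the 334 mouse microRNA probes, with 4 spots each. All 5 passed the filter on dim probes, which 88% of the probes passed, although miR-10a and miR-10b passed it through the Cy5 dye alone.

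Embryoid bodies are aggregates in which embryonic stem cells start to differentiate, and these were collected on day 7. All 3 groups were grown from mouse embryonic stem cells of the strain 129S7/SvEv Brd-Hprt b-m2 that carried human BRCA1, a DNA repair gene and tumour suppressor. RQ embryoid bodies had the missense change R1699Q in the human gene, MI embryoid bodies had M1652I, and WT embryoid bodies had the wild-type human gene, with 2 arrays per group. Feeder cells had been removed by letting them settle on gelatin. The labels do not say whether a group was grown from 1 clone, whether the mouse Brca1 gene was intact or whether replicates were cultured separately. The p-values below therefore measure only the spread between these samples, and that spread may be technical. Each array was hybridised with the group's RNA in the green dye, Cy3, and a common RNA in the red dye, Cy5, never with the dyes exchanged.

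Hox genes stand in clusters and encode transcription factors that set position along the body axis, and the genes of a cluster are switched on in order as an embryo or a culture leaves the stem cell state. The miR-10 and miR-196 genes lie between or within Hox genes and are transcribed with them. Mouse miR-196a pairs almost fully with Hoxb8 messenger RNA and directs its cleavage, and human miR-10b is best known for its role in breast cancer metastasis. The mature sequences are shown because the 2 pairs differ by a single base, which bears on how far their probes can tell them apart. They are credited to RefSeq, with positions in GRCm38.p6, and run 5′ to 3′ with the seed, bases 2 to 8, in capitals.
miR-10a-5p: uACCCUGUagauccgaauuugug
miR-10b-5p: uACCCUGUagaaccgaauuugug
miR-196a-5p: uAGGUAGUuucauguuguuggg
miR-196b-5p: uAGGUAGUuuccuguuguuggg
miR-615-3p: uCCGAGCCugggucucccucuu
The miR-10 pair shared one seed, the miR-196 pair shared another, and miR-615 had a seed of its own. Counted from 1 at the 5′ end, miR-10a differed from miR-10b by U12A, and miR-196a differed from miR-196b by A12C.

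Mature miR-10a lies at chr11:96317186-96317208 on the plus strand, within the annotated span of Hoxb3 and 1059 bases from Hoxb4. Mature miR-10b lies at chr2:74726074-74726096 on the plus strand, within the spans of Hoxd3 and Hoxd4. The same mature miR-196a comes from a pair of genes, Mir196a-1 at chr11:96265187-96265208, between Hoxb13 and Hoxb9, and Mir196a-2 at chr15:102973365-102973386, between Hoxc10 and Hoxc9, both on the plus strand. Mature miR-196b lies at chr6:52230129-52230150 on the minus strand, between Hoxa9 and Hoxa10. Mature miR-615-3p lies at chr15:103014969-103014990 on the plus strand, within the span of Hoxc5. The members therefore stood for all 4 Hox clusters, and one miR-196a probe could not tell the Hoxb locus from the Hoxc locus.

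The microRNA-specific part of each probe is shown next, because the capital base is the only one at which the paired probes differed where they overlap.
probe for miR-10a: cacaaattcggAtctacagggta
probe for miR-10b: acacaaattcggTtctacaggg
probe for miR-196a: ccaacaacaTgaaactaccta
probe for miR-196b: ccaacaacaGgaaactaccta
The first base of the miR-10b probe lies beyond the end of the mature sequence printed above. In each pair 1 of 21 overlapping probe bases differed. Cross-hybridisation within a pair was not measured on these arrays, so the values of miR-10a and miR-10b, and those of miR-196a and miR-196b, are uncertain as separate readings.

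Between 241 and 255 of the 334 mouse probes were well above background in Cy3, and 262 to 271 in Cy5. The median net signal of the negative control spots in Cy3, that is the spot mean minus its local background, was 54 and 61 units on the RQ arrays, 37.8 and 42.5 on the MI arrays and 34.3 and 28.2 on the WT arrays. The mutant arrays shared 1 slide row and the WT arrays the other, so slide row and mutation cannot be told apart in RQ or MI against WT. The labels give the Cy5 RNA as wild-type embryoid bodies on every array. Of 7 probes for stem-cell microRNAs, all 7 stood above background in Cy3 on each of the 6 arrays, against 2 of 7 in Cy5. Of 5 neural marker probes, 3 were above background in Cy3 on every array and 5 in Cy5, and their median log2 ratio of Cy3 over Cy5 was -3.41. The Cy5 RNA thus gave another marker pattern than WT embryoid bodies did in Cy3, and a Cy3 to Cy5 ratio below is not read as a change from WT.

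In the embryoid bodies of all 3 groups the miR-10 pair gave almost no Cy3 signal, while the Cy5 RNA gave a strong one. MiR-615 showed the opposite, with a strong signal in embryoid bodies and little in the Cy5 RNA. The miR-196 pair was dim in both dyes. These are descriptions of level, with no test, because the Cy5 RNA and the red dye were never separated by a dye swap. In such bulk RNA, fewer cells of a type and less of a microRNA per cell cannot be told apart.

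MiR-10a had a net Cy3 signal of 70.8 and 79.1 units on the RQ arrays, 52.5 and 59 on the MI arrays, and 58.2 and 47.9 on the WT arrays. Only 6 of its 24 spots passed as well above background in Cy3, and by the majority of its spots it was measured on 1 array, WT 1. In Cy5 it had 552 and 612 units beside RQ, 662 and 672 beside MI, and 800 and 794 beside WT, and all 24 spots were well above background. The log2 ratio of Cy3 over Cy5 averaged -3.41 ± 0.15 in RQ, -3.16 ± 0.08 in MI and -3.62 ± 0.06 in WT (SD, n = 2 each). On 5 of 6 arrays its Cy3 signal was not well above background, so the size of these ratios depends on the background and the offset, and no fold between the dyes is given.

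MiR-10b followed the same pattern, at net Cy3 signals of 67 and 70.8 in RQ, 47.6 and 57.2 in MI, and 48.3 and 47 in WT. On no array was its Cy3 signal well above background, so its Cy3 level is a bound set by the background. Its Cy5 signals were 434 and 462 beside RQ, 465 and 497 beside MI, and 492 and 544 beside WT. The log2 ratio averaged -3.08 ± 0.17 in RQ, -2.83 ± 0.04 in MI and -3.10 ± 0.06 in WT (SD, n = 2 each), with the same limit. The size of such dim ratios changed with the processing. A smaller offset of 16, added before the logarithm, gave 6-array means of -4.07 for miR-10a and -3.80 for miR-10b. These were lower than with the offset of 50 used here. With no background correction the means were higher, at -3.06 for miR-10a and -2.65 for miR-10b. From the scanner's own processed signals they were -6.97 for miR-10a and -6.68 for miR-10b, and the cause of that shift was not tested.

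MiR-196a was well above background in Cy3 on all 24 spots. Its net Cy3 signal was 118 and 125 in RQ, 103 and 121 in MI, and 108 and 98.8 in WT. In these averages RQ lay above WT and MI overlapped with both, but the spots averaged were unequal. One spot, at 175 and 129 on the WT arrays, was kept there and left out as an outlier on both RQ and both MI arrays. The other WT spots read 78 to 99 on WT 1 and 69 to 113 on WT 2. All overlaps of miR-196a with WT, also in the ratios below, carry this limit. In Cy5 it had 76.3 and 87 units beside RQ, 95.7 and 110 beside MI, and 90.8 and 123 beside WT. Its net signal was thus higher in Cy3 than in Cy5 on every array but WT 2, although its log2 ratio after normalisation was below 0 on every array. The log2 ratio averaged -0.40 ± 0.07 in RQ, -0.32 ± 0.05 in MI and -0.50 ± 0.22 in WT (SD, n = 2 each). Its 6-array mean was -0.40, but -1.99 from the scanner's processed signals.

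MiR-196b was dimmer than its own Cy5 signal on every array. Its net Cy3 signal was 72 and 77.3 in RQ, 66.8 and 81.5 in MI, and 44 and 61.8 in WT. It passed as above background in Cy3 on both MI arrays and on WT 2 only. Cy5 gave 98 and 103 units beside RQ, 128.2 and 140 beside MI, and 129 and 156 beside WT. The log2 ratio averaged -1.19 ± 0.02 in RQ, -1.08 ± 0.003 in MI and -1.41 ± 0.05 in WT (SD, n = 2 each). Its 6-array mean was -1.23, but -4.07 from the processed signals.

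MiR-615, which lies within Hoxc5, was the bright member in embryoid bodies. Its net Cy3 signal was 1826 and 1798 on the RQ arrays, 1307 and 1461 on the MI arrays, and 865 and 1194 on the WT arrays. In these net signals, which are not normalised between arrays, RQ was highest and WT lowest. The means were 1812 ± 20.2 in RQ, 1384 ± 109 in MI and 1030 ± 232 in WT (SD, n = 2 each). Each tested probe's mean net Cy3 signal was also divided by its mean in WT. The median of these ratios over the tested probes was 1.35 in RQ and 1.06 in MI. Below, a value for the median tested probe is such a median of ratios. In Cy5 it was dim, between 29.1 and 37 units, but above the negative control medians of 7.8 to 17.3, and 23 of 24 spots were well above background. The log2 ratio averaged 3.94 ± 0.04 in RQ, 4.03 ± 0.16 in MI and 3.27 ± 0.42 in WT (SD, n = 2 each). By this ratio RQ and MI overlapped. By the mean of this ratio Cy3 was 13.4-fold brighter over the 6 arrays, rank 10 from the highest of all tested ratios. That mean was 3.75 in log2 units, but 4.94 from the scanner's processed signals, so the fold depends on the processing. No spot of any member was saturated.

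**Figure D1:**
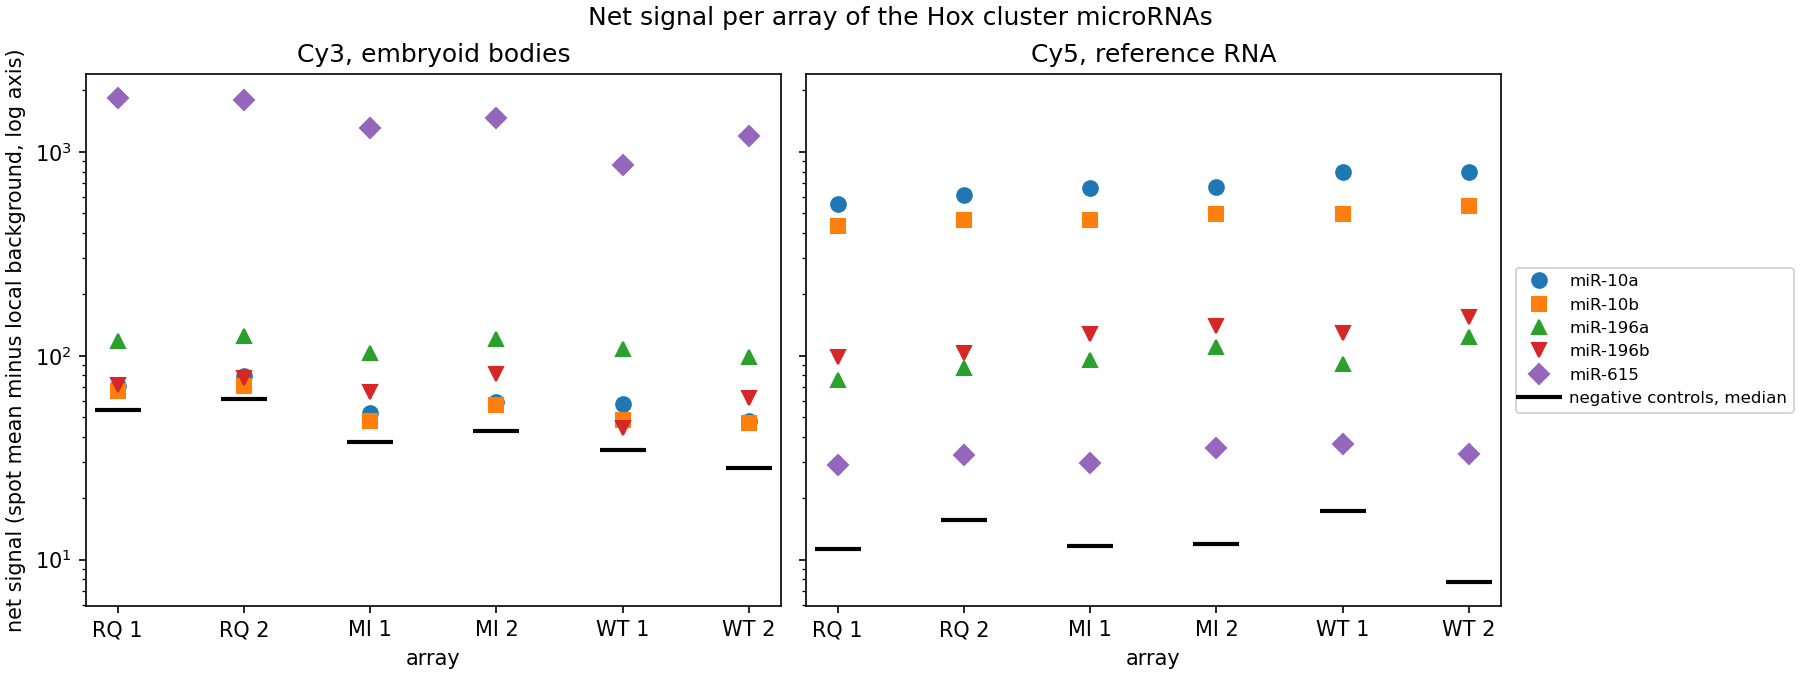
Net signal of each member on each array (log axis) in Cy3, the embryoid bodies, and in Cy5, the common RNA. Points are means over the spots kept, black lines are the median of the negative control spots, and levels of different probes are not comparable. MiR-10a and miR-10b sit just above the control lines in Cy3 and between 434 and 800 units in Cy5, whereas miR-615 lies between 865 and 1826 in Cy3 and between 29.1 and 37 in Cy5.

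**Figure D2:**
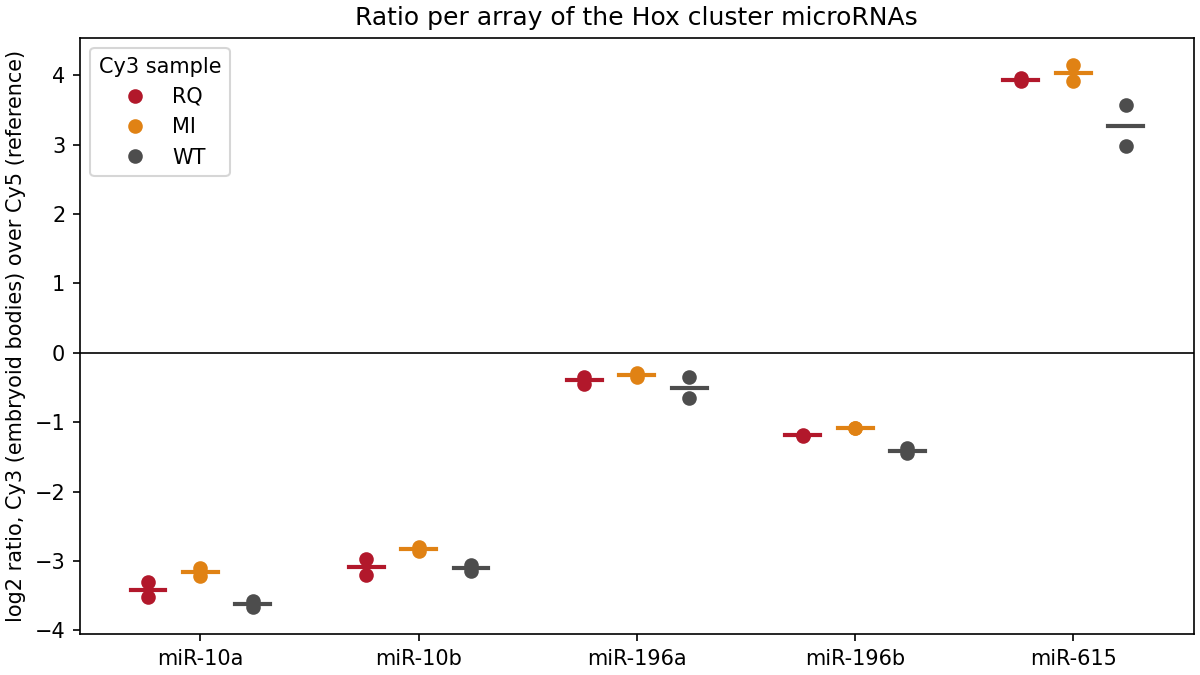
Log2 ratio of Cy3 over Cy5 for each member on the RQ, MI and WT arrays. Each point is 1 array and each line a group mean. The ratios of miR-10a, miR-10b, miR-196a and miR-196b are below 0 on all 6 arrays and those of miR-615 above 0.

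With R1699Q, none of the 5 members passed the test against WT, at an adjusted p under 0.05 from limma over all tested probes, where 21.4% of the probes were called. At an unadjusted p under 0.05 there was 1 member of 5, miR-615, against 37.4% of all probes. MiR-615 had log2 ratios of 3.96 and 3.91 in RQ, against 2.98 and 3.57 in WT, and the groups did not overlap. The difference was 0.66 (SE 0.21, 95% confidence interval 0.15 to 1.18, limma adjusted p = 0.0781). Its mean net Cy3 signal was 1.76 times that of WT, where the median tested probe stood at 1.35 times.

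The other 4 members had smaller differences between RQ and WT. MiR-10a had log2 ratios of -3.31 and -3.51 in RQ, against -3.66 and -3.58 in WT, a difference of 0.21 (95% confidence interval -0.09 to 0.51, limma adjusted p = 0.277). MiR-196b had -1.18 and -1.20 in RQ, against -1.44 and -1.37 in WT, a difference of 0.22 (-0.03 to 0.47, limma adjusted p = 0.178). Neither overlapped with WT. MiR-10b, at -2.97 and -3.20 in RQ, against -3.14 and -3.05 in WT, overlapped and differed by 0.015 (-0.29 to 0.32, limma adjusted p = 0.944). MiR-196a, at -0.35 and -0.45 in RQ, against -0.34 and -0.66 in WT, also overlapped and differed by 0.10 (-0.24 to 0.44, limma adjusted p = 0.618). In all, 3 of 5 members stood above WT without overlap, as did 33% of all probes, and the median difference was 0.21, beside 0.03 over all probes.

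The 2 dyes of the miR-10 and miR-196 pairs gave these values. The mean net Cy3 signal in RQ was 1.41 times that in WT for miR-10a, 1.45 for miR-10b, 1.18 for miR-196a and 1.41 for miR-196b, against 1.35 for the median tested probe. The mean Cy5 net signal beside RQ was 0.731 times that beside WT for miR-10a, 0.865 for miR-10b, 0.763 for miR-196a and 0.706 for miR-196b, against 0.834 for the median tested probe. From Cy3 alone, once normalised between arrays, all 4 differed the other way in RQ minus WT, by -0.15 for miR-10a, -0.15 for miR-10b, -0.25 for miR-196a and -0.14 for miR-196b. The Cy3 signals of miR-10a, miR-10b and miR-196b were not well above background on either RQ array. Their Cy3 values here are therefore not read as a fold of the microRNA. The part of the Cy5 signal and of the higher negative controls of RQ in these values was not tested. MiR-615 stayed above WT under every alternative run, by 0.30 to 0.96.

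With M1652I, again none of the 5 members passed the test against WT, where 15.6% of all probes were called. At an unadjusted p under 0.05 there were 3 of 5, miR-10a, miR-196b and miR-615, against 36.7% of all probes. MiR-615 had log2 ratios of 4.15 and 3.92 in MI, against 2.98 and 3.57 in WT, a difference of 0.76 (SE 0.21, 95% confidence interval 0.24 to 1.28, limma adjusted p = 0.0623). MiR-10a had -3.11 and -3.22 in MI, against -3.66 and -3.58 in WT, a difference of 0.46 (0.15 to 0.76, limma adjusted p = 0.0585). MiR-196b had -1.08 on both MI arrays, against -1.44 and -1.37 in WT, a difference of 0.33 (0.08 to 0.58, limma adjusted p = 0.0779). None of these 3 overlapped with WT.

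MiR-10b had -2.80 and -2.86 in MI, against -3.14 and -3.05 in WT, and differed by 0.27 without overlap (95% confidence interval -0.03 to 0.58, limma adjusted p = 0.174). MiR-196a had -0.28 and -0.35 in MI, against -0.34 and -0.66 in WT, and overlapped, with a difference of 0.18 (-0.16 to 0.52, limma adjusted p = 0.368). Thus 4 of 5 members stood above WT without overlap, beside 45.6% of all probes. Their median difference was 0.33, against 0.11 over all probes. The mean net Cy3 signal of miR-615 in MI was 1.34 times that in WT, where the median tested probe stood at 1.06 times. The Cy5 signal beside MI was 0.837 times that beside WT for miR-10a and 0.927 to 0.963 times for the other 4, against 0.917 for the median probe. The direction of the miR-10 pair changed with the processing: from Cy3 alone miR-10a differed by -0.11 and miR-10b by -0.091, and from the processed signals of both dyes by -0.34 and -0.097. MiR-196b, miR-196a and miR-615 kept a positive difference under every alternative run. With no background correction miR-10a passed the test, at 0.57 (limma adjusted p = 0.0263), where 16.3% of all probes did. With a smaller normexp offset of 16, miR-196b and miR-615 passed, where 22.1% of all probes did.

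The WT arrays differed from each other in miR-615 by more than the mutant replicates did. Without WT 2, miR-615 passed the test both for RQ, at a difference of 0.96 (limma adjusted p = 0.0241), and for MI, at 1.06 (limma adjusted p = 0.0133), in fits that called 20.4% and 21.4% of all probes. The single WT array left in that fit is assumed to vary like the other groups. Without WT 1 the differences were 0.37 for RQ and 0.46 for MI.

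Between the mutants, none of 5 members differed past the test, where 10.9% of all probes were called, and none reached an unadjusted p under 0.05, as 26.5% of all probes did. The log2 differences of RQ minus MI were -0.25 for miR-10a (limma adjusted p = 0.25), -0.26 for miR-10b (limma adjusted p = 0.244) and -0.11 for miR-196b (limma adjusted p = 0.529), and these 3 did not overlap, beside 44.9% of all probes that were lower in RQ without overlap. Over all probes the median difference was -0.10. MiR-196a differed by -0.080 and overlapped. MiR-615 differed by -0.095 with overlap, and its 95% confidence interval ran from -0.61 to 0.42, so a difference of that size between the mutants is not excluded. This comparison lay within 1 slide row.

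**Figure D3:**
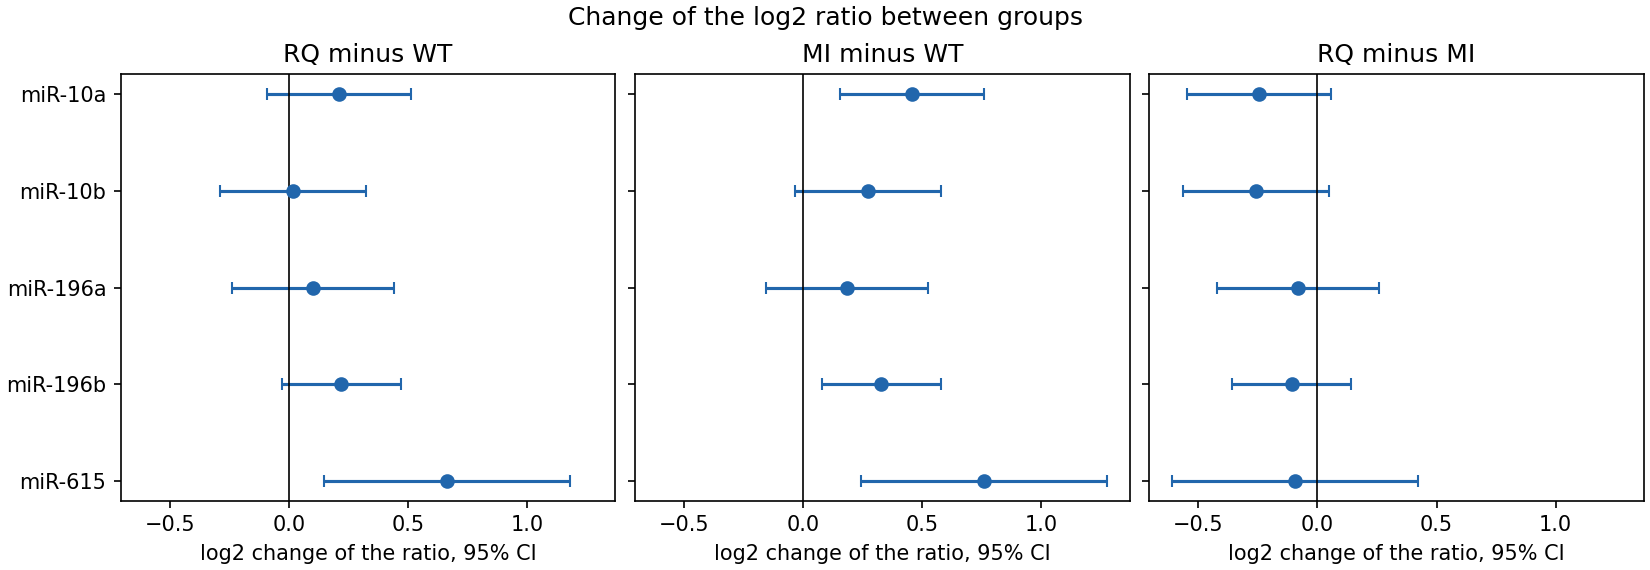
Difference of the log2 ratio for each member in RQ minus WT, MI minus WT and RQ minus MI. Points are limma estimates on 2 arrays per group and bars are 95% confidence intervals. The intervals of miR-615 lie above 0 in both comparisons with WT and span 0 in RQ minus MI.

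**Figure D4:**
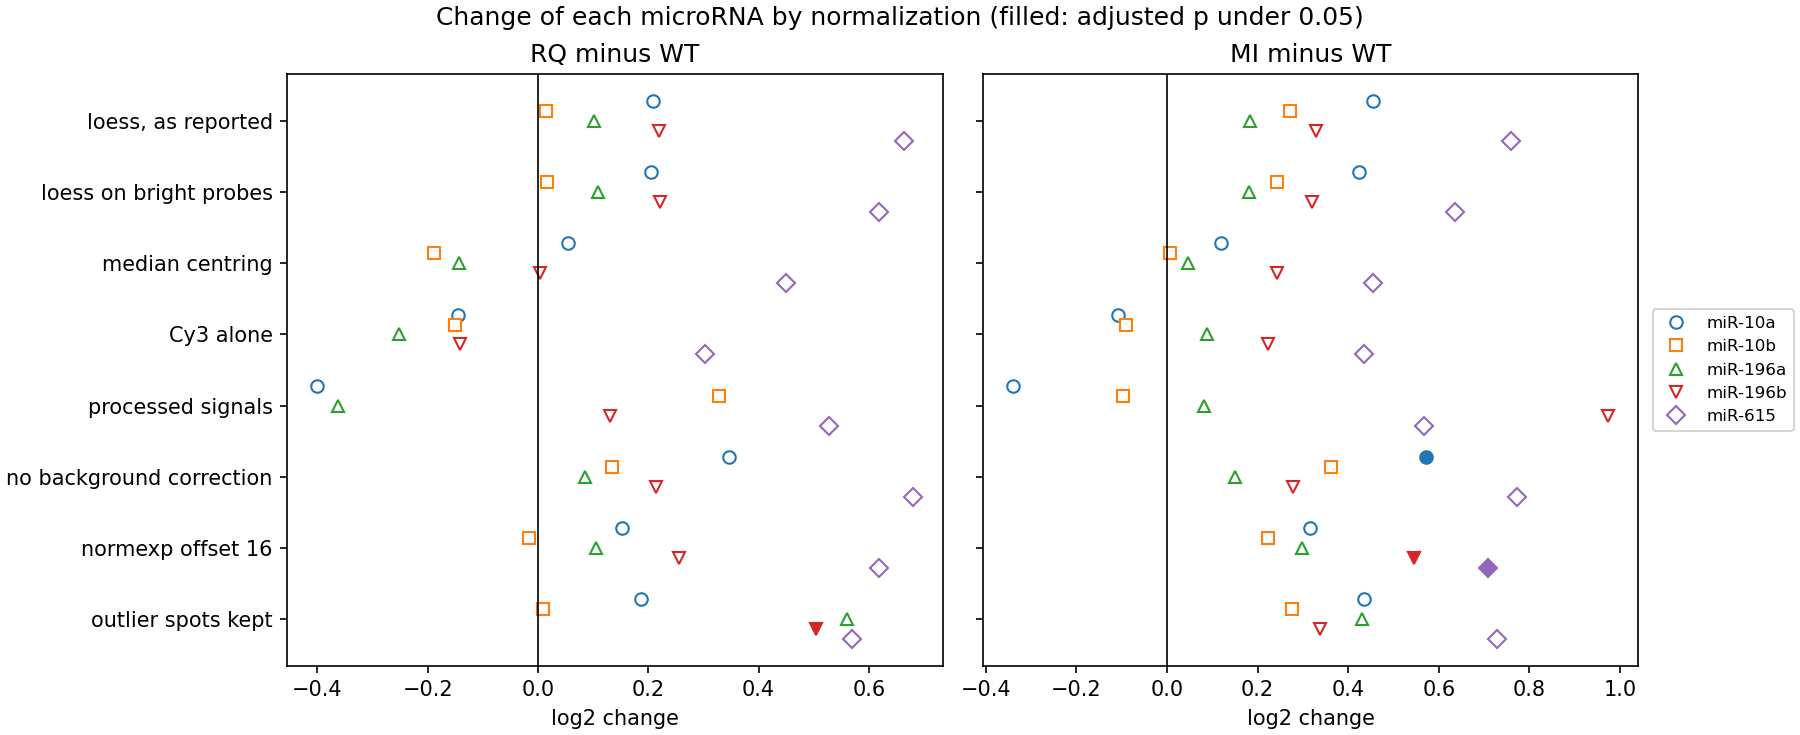
Log2 difference of each member from WT under 8 ways of normalising the arrays, for RQ and MI. Filled symbols have a limma adjusted p under 0.05. MiR-615 lies right of 0 in every row of symbols, whereas miR-10a and miR-10b lie left of 0 from Cy3 alone.

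Single spots of the miR-196 probes stood out, for miR-196a on the RQ and MI arrays and for miR-196b on the RQ arrays. One of the 4 miR-196a spots read 704.5 and 1493 net Cy3 units on the RQ arrays and 209 and 529 on the MI arrays, against 175 and 129 on the WT arrays. It was the brightest spot of its probe on the WT arrays too, where it was kept. The other 3 spots of the probe read between 108 and 134 on RQ 2 and between 96 and 108 on MI 1. One miR-196b spot read 304 and 250 on the RQ arrays, against 32.6 and 70 on the WT arrays. The other 3 spots of the miR-196b probe lay between 56 and 92 on the RQ arrays. The scanner marked the readings of both spots on RQ, and of the miR-196a spot on MI, as outliers. They were left out of the values above. With them kept, miR-196b passed the test in RQ minus WT, at 0.50 (limma adjusted p = 0.026), where 18% of all probes did. The brightest negative control spot read 1444 and 1324 net Cy3 units on the RQ arrays, against 688 and 530 on the WT arrays.

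**Figure D5:**
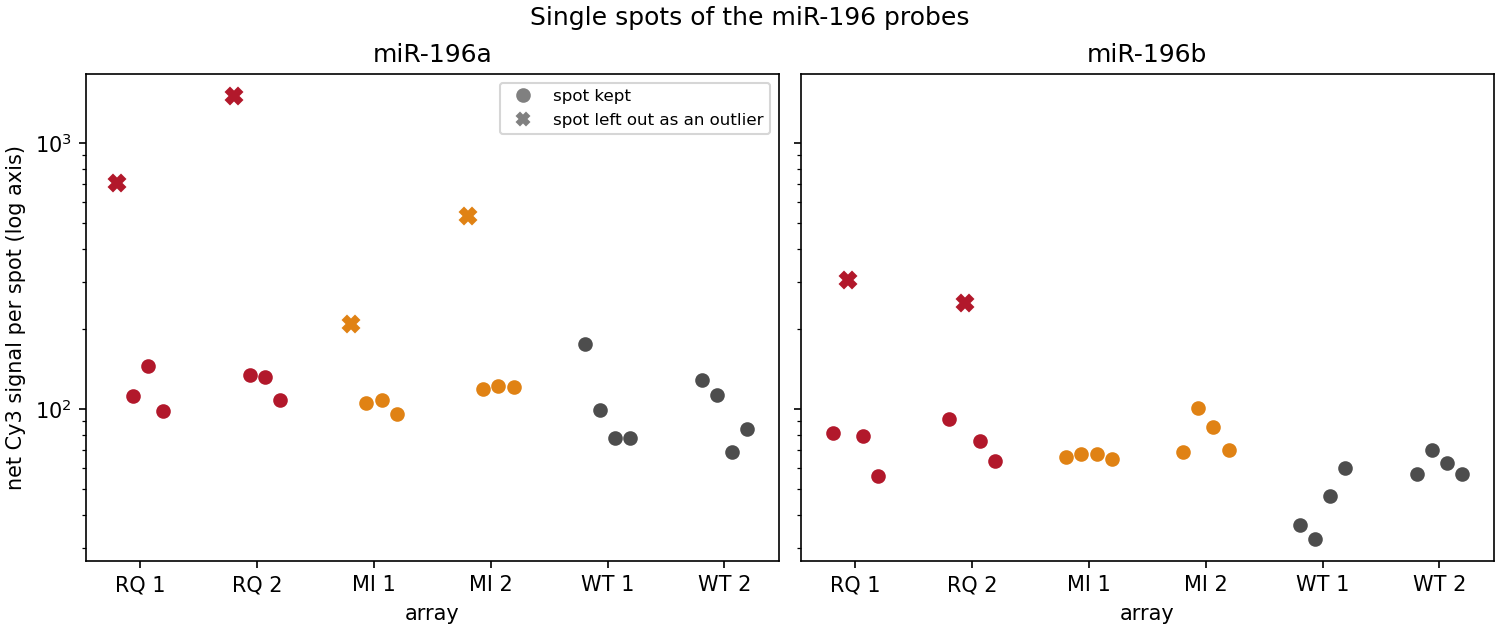
Net Cy3 signal of each of the 4 spots of the miR-196a and miR-196b probes on every array (log axis). Crosses are spots that the scanner marked as outliers and that were left out. The crosses reach 1493 for miR-196a and 304 for miR-196b, both on RQ arrays, while the kept spots lie at 175 or below.

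The microRNAs whose log2 ratios followed each member most closely over the 6 arrays were named by the smallest root mean square difference after each was centred on its own mean, over all other tested probes. For miR-10a these were miR-671 at 0.0391, miR-100 at 0.0536 and miR-543 at 0.0569, against a median of 0.262 over all probes. For miR-10b the nearest was miR-470 at 0.0326, with miR-324-5p and miR-144 next. For miR-196a they were miR-382, miR-129-5p and miR-350, and for miR-196b miR-140, miR-686 and miR-212. For miR-615, whose ratio varied more between arrays, they were miR-99a at 0.111, let-7i and miR-19a, against a median of 0.387 over all probes. Within the cluster set, miR-10a was 0.0878 from miR-196b and 0.0912 from miR-10b, miR-10b was 0.107 from miR-196b, and miR-196a and miR-196b were 0.13 apart. MiR-615 was 0.247 to 0.379 from the other 4. All of these share the same 6 arrays and the same Cy5 RNA.

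The sequence relatives of the miR-10 pair lie outside the Hox clusters and have another seed, as these RefSeq sequences show.
miR-99a-5p: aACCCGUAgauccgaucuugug
miR-100-5p: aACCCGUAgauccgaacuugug
MiR-10a and miR-100 share a run of 11 bases, from base 7 of miR-10a. Both relatives were brighter in Cy5, with 6-array mean log2 ratios of -3.32 for miR-99a and -3.67 for miR-100. In Cy3 miR-99a was above background on all 6 arrays but miR-100 on only 2, so the miR-100 ratio depends on the background and the offset. MiR-99b stood at -0.58. Of these 3 relatives, 1 rose in RQ minus WT and 1 in MI minus WT, in both cases miR-99a, where 7.48% and 9.18% of all probes rose. The differences were 0.53 (SE 0.14, limma adjusted p = 0.0486) and 0.73 (SE 0.14, limma adjusted p = 0.0264). From Cy3 alone, miR-99a differed by -0.073 in RQ minus WT and its call was lost in both comparisons. Both calls were also lost from the processed signals and with only the 4 arrays of the 2 groups. The call in RQ minus WT was further lost with outlier spots kept, with either other filter on dim probes and with a replicate block. Median centring, no background correction and the offset of 16 kept both calls.

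The let-7 family shares the run agguagu with miR-196a at a shift of 1 base, so their seeds overlap without being equal. Let-7 microRNAs accumulate as cells leave the stem cell state. All 9 tested members of let-7 and miR-98 stood above background in both dyes on each of the 6 arrays, at a median log2 ratio of -3.45. Of these 9, 3 fell in RQ minus WT, let-7a at -1.02, let-7f at -0.92 and let-7g at -0.85, each at a limma adjusted p of 0.0471, beside 13.9% of all probes, although the median over the 9 was 0.17. With each array centred on its median in place of loess, none of the 3 passed and let-7a stood at 0.0099. None of the 9 passed in MI minus WT, and let-7g was lower in RQ minus MI, at -1.07 (limma adjusted p = 0.037), where 7.82% of all probes were lower.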

How the data were processed

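Mature microRNAs were read in total RNA labelled at its 3′ end, per the labels' protocols, on 2-colour Agilent arrays. Per the file headers, the deposited scanner files from Agilent Feature Extraction 9.5.1.1 give each spot's mean and local background intensity on a linear scale. The deposited log10 ratio is Cy5 over Cy3, per the file headers, and the authors' value table equalled minus that log10 ratio for all 1932 features, with a largest difference of 0 and column medians of 0. The deposited files also carry the scanner's flags for outlier, saturated and well-above-background spots (another kind of value), per the file headers. Each file lists 1932 of 14712 features counted by the scanner; the others were not analysed here. Of these, 1336 were spots of mouse microRNA probes, 4 per probe, on probes of 60 bases.

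Intensities were corrected with normexp (offset 50) and loess within arrays in limma 3.58.1 under R 4.3.3, with control and outlier spots given no weight. Spots marked as outliers were left out, 60 to 99 per array, and the others averaged as log2 Cy3 over Cy5. Tested probes had over 0.5 of their spots well above background in either dye on at least 2 arrays. The groups were compared on all 6 arrays by limma's moderated test (degrees of freedom 3 residual, 2.99 prior), with Benjamini-Hochberg adjustment over the tested probes (88%) at 0.05, and the code was tested on simulated data. The number of arrays limits the precision, and an exact permutation test of 2 arrays against 2 cannot go below p = 0.333. Alternatives covered scaling, background correction, outlier spots, the filter, the arrays fitted, a replicate block and leaving out each array. The named microRNAs are the 5 members, the miR-99/100 and let-7 relatives, and the 3 probes nearest to each member. Members and lists were chosen with earlier results of these data known. Sequences were matched by microRNA name, and 5 of 5 probes paired with the RefSeq sequence.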

Additional observations from a re-analysis of the deposited data

Results flagged for a closer look

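Spots outside the averaged values read higher in Cy3 than on the WT arrays. One spot of the miR-196a probe was marked as an outlier by the scanner on the RQ and MI arrays but kept on the WT arrays. It read 704.5 units of net Cy3 on RQ 1, 1493 on RQ 2, 209 on MI 1 and 529 on MI 2, against 129 to 175 on the WT arrays. Its Cy5 reading was 204 and 372 on the RQ arrays. One spot of the miR-196b probe, also marked as an outlier, read 304 on RQ 1 and 250 on RQ 2, against 32.6 to 70 on the WT arrays. The brightest negative control spot of each array read 1444 on RQ 1, 1324 on RQ 2, 218 on MI 1 and 488 on MI 2. On the WT arrays it read 688 and 530. Whether the left-out spots carried microRNA signal was not tested. Spots more than 2-fold above the other spots of their probe on both RQ arrays and on neither WT array made up 1.27% of the 1336 microRNA spots, 17 in number, of which 1 belonged to a member, while 1 spot showed the reverse.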

How the results depend on the processing

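The log2 ratios of 4 members were below 0 on all 6 arrays, also under the other scalings and background corrections, and those of 3 were with outlier spots kept; these alternatives for the ratio were added after seeing the data. Mean ratios ranged from -6.97 to -3.06 for miR-10a, -6.68 to -2.65 for miR-10b, -1.99 to -0.19 for miR-196a, -4.07 to -1.06 for miR-196b and 3.49 to 4.94 for miR-615.
In RQ minus WT, median centring gave -0.19 for miR-10b, -0.14 for miR-196a and 0.0099 for let-7a. Cy3 alone gave -0.15 for miR-10a, -0.15 for miR-10b, -0.25 for miR-196a, -0.14 for miR-196b and -0.073 for miR-99a. The processed signals gave -0.40 for miR-10a and -0.36 for miR-196a, and a normexp offset of 16 gave -0.016 for miR-10b.
In MI minus WT, Cy3 alone gave -0.11 for miR-10a and -0.091 for miR-10b, and the processed signals -0.34 and -0.097. In RQ minus MI, the processed signals gave 0.43 for miR-10b, and kept outlier spots 0.13 for miR-196a and 0.17 for miR-196b. The cause was not tested in any of these.
Calls among the 5 members went from 0 to 1 in RQ minus WT with outlier spots kept (miR-196b), and in MI minus WT to 1 with no background correction (miR-10a, 0.57, limma adjusted p = 0.0263) and to 2 with the offset of 16 (miR-196b at 0.54 and miR-615 at 0.71). Calls over all probes in MI minus WT were 46, or 27 with the 4 arrays of the 2 groups. In RQ minus MI they were 32, or 7 with no background correction and 14 with outlier spots kept.
Leaving out each array in turn gave 5 to 60 calls in RQ minus WT (63 with all 6; 5 without RQ 1), 6 to 63 in MI minus WT (6 without MI 1) and 0 to 48 in RQ minus MI (by limma, 0 without MI 1, MI 2 or RQ 2, where 47 to 60 probes had an unadjusted p under 0.05, and 1 without RQ 1). Calls among the members were 0 to 1 in RQ minus WT and 0 to 1 in MI minus WT, in both cases miR-615 without WT 2. The difference in RQ minus WT ranged from -0.10 to 0.13 for miR-10b and from -0.053 to 0.26 for miR-196a, and in RQ minus MI from -0.21 to 0.021 for miR-615.
Cy3 alone shifted the median probe by -0.10 in RQ minus WT, where loess gave 0.03, and the processed signals by -0.26. Rises made up 58.7% of the calls in MI minus WT, 38.5% with median centring, 28.6% from Cy3 alone and 28.1% from the processed signals. In RQ minus MI they made up 28.1%, but 45.9% with median centring, 41.7% from Cy3 alone and 40.7% from the processed signals.
Replicates share only a number, and deviations correlated at 0.04 to 0.18 between groups. With a replicate block there were 59 calls in RQ minus WT, 39 in MI minus WT and 38 in RQ minus MI, none of a member. Dim Cy3 signals limit the miR-10 pair and miR-196b.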
